A study of Mus musculus with 14 samples.

Results

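Pericytes and vascular smooth muscle cells, together called mural cells, were picked out of single-cell transcriptomes of the mouse lateral hypothalamic area by their marker RNA. A barcode stands for the RNA captured with 1 bead, in most cases that of 1 cell, and a unique molecular identifier (UMI) for 1 captured RNA molecule. Of 28410 barcodes, 15378 were kept, each with a minimum of 500 UMIs and 300 genes and with mitochondrial transcripts at 20% of UMIs or less. A kept barcode was counted as mural when the UMIs of Vtn, Rgs5, Acta2 and Tagln summed to at least 3 and to at least as many as those of the endothelial genes Flt1, Ly6c1, Ly6a, Cldn5 and Slco1a4, with at most 1 UMI of the neuronal genes Snap25 and Syt1. This gave 274 mural barcodes. Acta2 and Tagln held more UMIs than Vtn and Rgs5 in 97 of them, called Acta2/Tagln-led here, and fewer in the other 177, called Vtn/Rgs5-led, with no ties.

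The tissue was punched from male wild-type C57BL/6J mice that ate freely either a high fat diet (7 mice) or a control chow made to match it in taste (7 mice), and each mouse gave 1 Drop-seq library. No label used here gives the age of the mice or the time on the diets. All mice lived on a reversed light cycle. Sequencing was done in pools 1 and 2 on separate lanes, and pool 1 held 4 mice per diet and pool 2 held 3. Replicate numbers follow the listing order and pair no mice.

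Mural cells lie in the wall of brain vessels, against the endothelium and within the basement membrane. Pericytes sit along capillaries and are recruited there by the receptor PDGFRB, and they carry ATP-sensitive potassium channels that link metabolism to capillary tone. Smooth muscle cells wrap arterioles and venules and shorten through actin and smooth muscle myosin, so they set vessel diameter and blood flow.

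The 14 libraries held 147470 to 5611524 UMIs and 49 to 1779 kept barcodes. Control replicates 1 to 7 gave 34, 33, 14, 48, 33, 5 and 9 mural barcodes, and high fat diet replicates 1 to 7 gave 11, 13, 13, 29, 17, 13 and 2. The median mural barcode had 777.5 UMIs, against 846.5 in endothelial barcodes chosen by the mirror image of the rule (442 barcodes), 1093 in barcodes rich in oligodendrocyte RNA (6208) and 3911 in barcodes rich in neuronal RNA (5567). Mice 1 and 2 of the control group and mouse 1 of the high fat diet group, all of pool 1, stood apart from the other mice in earlier results, so tests below were repeated without them. Scrublet, a program that scores barcodes for mixed cells, called 222 kept barcodes doublets (1.44%), of which 6 were mural. Between libraries, 41 barcode sequences were shared, 3 of them among kept barcodes and 0 among mural ones.

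The share of Acta2 and Tagln in the marker UMIs, which divides the mural barcodes, is described here with no test. It was 0% in 144 barcodes, above 0 to 25% in 18, above 25 to 50% in 15, above 50 to 75% in 25, above 75% but below 100% in 48, and 100% in 24. In 11 barcodes it lay between 40 and 60%. Acta2/Tagln-led barcodes had a median of 21 UMIs of Acta2 and Tagln and 2 of Vtn and Rgs5, and Vtn/Rgs5-led barcodes a median of 0 and 14. At the edge of the rule, 9 barcodes had a marker sum of exactly 3, and 15 others that met every other condition had a sum of 2. The marker sum equalled the endothelial sum in 3 members and was 1 UMI short of it in 5 barcodes left out.

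**Figure D1:**
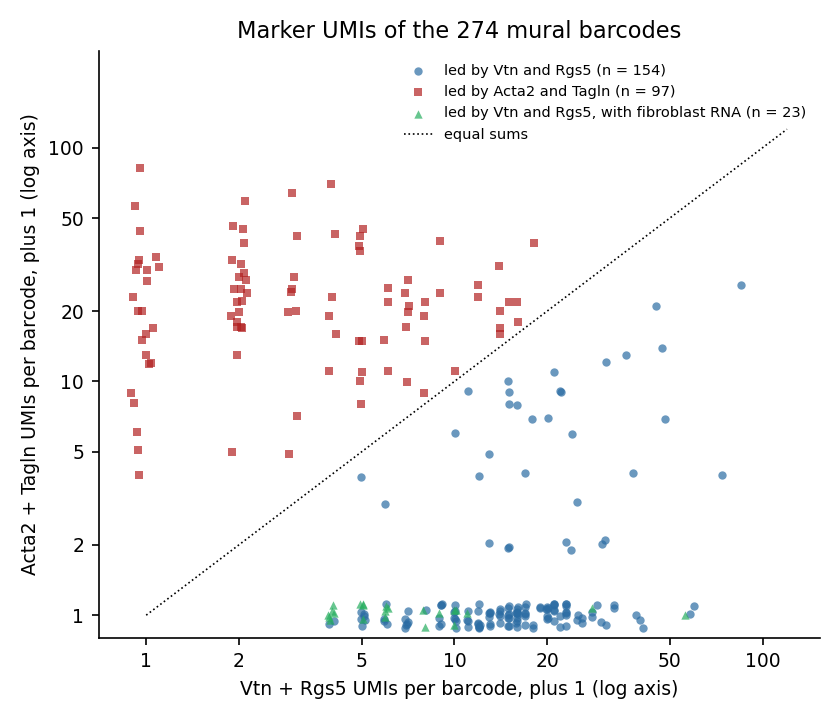
Each point is 1 of the 274 mural barcodes, with its Vtn and Rgs5 UMIs (plus 1, log axis, slightly scattered) against its Acta2 and Tagln UMIs (plus 1, log axis). Acta2/Tagln-led barcodes (97) lie above the dotted line of equal sums, and of the barcodes below it 144 have no UMI of Acta2 or Tagln.

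Whether the label holds for each of these barcodes was not tested. Of the members, 92 had 1 or more UMIs of the endothelial genes of the rule. Kcnj8, a marker that the rule did not use, had a UMI in 85 of 274 members (31.0%), against 5.88% of endothelial, 0.0322% of oligodendrocyte and 0.144% of neuronal barcodes, whose median depths were as above. Against the label, 23 Vtn/Rgs5-led barcodes from 12 mice had at least 3 UMIs of the fibroblast genes Dcn, Lum, Col1a1, Col1a2 and Col3a1, and in 19 of the 23 these outnumbered the marker UMIs. Their median was 19 fibroblast UMIs against a marker sum of 5. They are called barcodes with fibroblast RNA here and are given no cell type name. This division was made after the values were seen.

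Levels below are UMIs of a gene per 1000000 UMIs of all genes (CPM), summed over the barcodes of a kind in each mouse and averaged with equal weight over the 11 mice that had at least 10 mural barcodes, or, within mural barcodes, over the 9 mice that had at least 5 of each kind. A single UMI was worth 23.6 to 109 CPM in the mural sums of the 11 mice. The rule itself chose barcodes on these contrasts, so levels between kinds are descriptions with no test.

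The contractile genes marked the Acta2/Tagln-led barcodes. Myh11, the heavy chain of smooth muscle myosin, had 6878 ± 2236 CPM in Acta2/Tagln-led and 456 ± 331 in Vtn/Rgs5-led barcodes (SD, n = 9 mice). Its lowest value in the first kind, 4721 CPM, lay above its highest in the second, 1084 CPM. Tpm2, which encodes a tropomyosin of the thin filament, had 6011 ± 1010 and 284 ± 281 CPM (SD, n = 9 mice). Pln, the phospholamban that restrains the calcium pump of the sarcoplasmic reticulum, had 2067 ± 613 and 89.2 ± 118 CPM. Lmod1, an actin nucleator of smooth muscle, had 2584 ± 738 and 275 ± 314 CPM. Each was higher in Acta2/Tagln-led barcodes in 9 of 9 mice.

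Some contractile RNA was common to both kinds. Myl9, the regulatory light chain of myosin, had 9985 ± 2335 CPM in Acta2/Tagln-led and 1867 ± 588 in Vtn/Rgs5-led barcodes (SD, n = 9 mice), and Cald1, the actin-binding caldesmon, had 9936 ± 1212 and 4450 ± 1138 CPM. Myl9 was found in 64.4% of Vtn/Rgs5-led barcodes, against 19.7% of endothelial and 0.177% of oligodendrocyte barcodes. Of 24 contractile genes outside the rule, 21 had at least 20 mural UMIs, and all 21 were higher in Acta2/Tagln-led barcodes, 18 of them at least 3-fold. Among 2901 genes with that many UMIs, 43.9% were higher in Acta2/Tagln-led barcodes and 5.86% at least 3-fold, and since the list overlaps in kind with the rule nothing is read from this contrast. Actg2, the gamma actin of visceral smooth muscle, had 0 UMIs in mural barcodes.

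Serum response factor drives many contractile genes through a DNA element called the CArG box, and for this reason the windows of the contractile list that hold one are printed. RefSeq sequences on GRCm38.p6 gave the 250 bases before the start of 23 of the 26 listed genes, and 3 of the 23 (13.0%) held the element, against 1.62% of all 27025 genes. The element reads alike on both strands, so 1 search covered both, and it is in capitals below. The window of Myl9 is chr2:156775214-156775463 and that of Vcl is chr14:20929148-20929397, both on the plus strand and directly before the annotated start. The third gene, Myl6, holds it before the second of its listed starts, which lies inside the gene, so that window is not printed.
Myl9: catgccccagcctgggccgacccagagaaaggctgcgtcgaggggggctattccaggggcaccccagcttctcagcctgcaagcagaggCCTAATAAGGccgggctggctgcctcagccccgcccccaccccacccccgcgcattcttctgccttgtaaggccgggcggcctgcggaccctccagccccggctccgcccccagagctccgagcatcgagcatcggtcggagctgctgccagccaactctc
Vcl: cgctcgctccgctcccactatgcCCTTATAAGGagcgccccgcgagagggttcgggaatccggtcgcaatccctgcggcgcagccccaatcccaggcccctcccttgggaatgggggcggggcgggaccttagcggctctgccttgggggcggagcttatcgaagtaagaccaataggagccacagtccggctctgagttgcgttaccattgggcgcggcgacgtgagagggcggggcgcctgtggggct
The element begins 161 bases before the start of Myl9 and 227 before that of Vcl. Vcl, which encodes the adhesion protein vinculin, had 134 CPM in Acta2/Tagln-led and 116 in Vtn/Rgs5-led barcodes, and Myl6, an essential myosin light chain, had 496 and 150 CPM. A match describes the letters only, and none of the 11 matched pericyte markers had one.

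Among genes outside the rule with at least 30 mural UMIs, those with the largest ratio of Acta2/Tagln-led over Vtn/Rgs5-led barcodes were Pln, Rbm24, Tpm2, Gpr20, Nrip2, Dpysl3, Aoc3, Myom1, Myh11 and Pdlim3. Aoc3, an amine oxidase of vessel walls, had 31 UMIs in Acta2/Tagln-led and 2 in Vtn/Rgs5-led barcodes. Gpr20, a G protein-coupled receptor, had 29 and 1, and Rbm24, a regulator of muscle splicing, 31 and 5. Hes1, a target of Notch, had 1450 ± 975 and 358 ± 156 CPM (SD, n = 9 mice) and was higher in Acta2/Tagln-led barcodes in 9 of 9 mice. Sparcl1, a secreted matrix protein, had 12989 ± 2592 and 5023 ± 880 CPM, also higher in 9 of 9 mice.

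Both subunits of the ATP-sensitive potassium channel were on the other side. Kcnj8, the pore of the ATP-sensitive channel, had 0 UMIs in the 97 Acta2/Tagln-led barcodes, which allows a share of up to 3.09% of such barcodes with a UMI. In Vtn/Rgs5-led barcodes it had 1016 ± 447 CPM (SD, n = 9 mice), with a range of 316 to 1490, at least 32.7-fold higher when the absent count is set at 3 UMIs over the group. Abcc9, the regulatory subunit of the same channel, likewise had 0 UMIs in Acta2/Tagln-led barcodes and 279 ± 214 CPM in the rest, at least 8.97-fold higher. Atp13a5, a transport ATPase used as a pericyte marker, also had 0 UMIs there and 510 ± 276 CPM in the rest, at least 16.4-fold higher. Ifitm1, an interferon-induced membrane protein, had 0 UMIs and 635 ± 325 CPM, at least 20.4-fold higher.

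Other pericyte markers were shared in different measure. Higd1b, a mitochondrial protein gene, had 692 ± 278 CPM in Acta2/Tagln-led and 1139 ± 385 in Vtn/Rgs5-led barcodes, with overlapping ranges (SD, n = 9 mice). Pdgfrb, the receptor for PDGF, had 261 ± 139 and 528 ± 329 CPM, and Cspg4, the NG2 proteoglycan, 262 and 340 CPM. Rgs4, a brake on G protein signalling, went the other way, with 1626 ± 677 and 957 ± 296 CPM. Of 12 pericyte markers outside the rule with at least 20 UMIs, 9 were higher in Vtn/Rgs5-led barcodes and 6 at least 3-fold, beside 56.1% and 11.9% of all genes. The contrast is that of the rule, so no more is read from these counts.

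**Figure D2:**
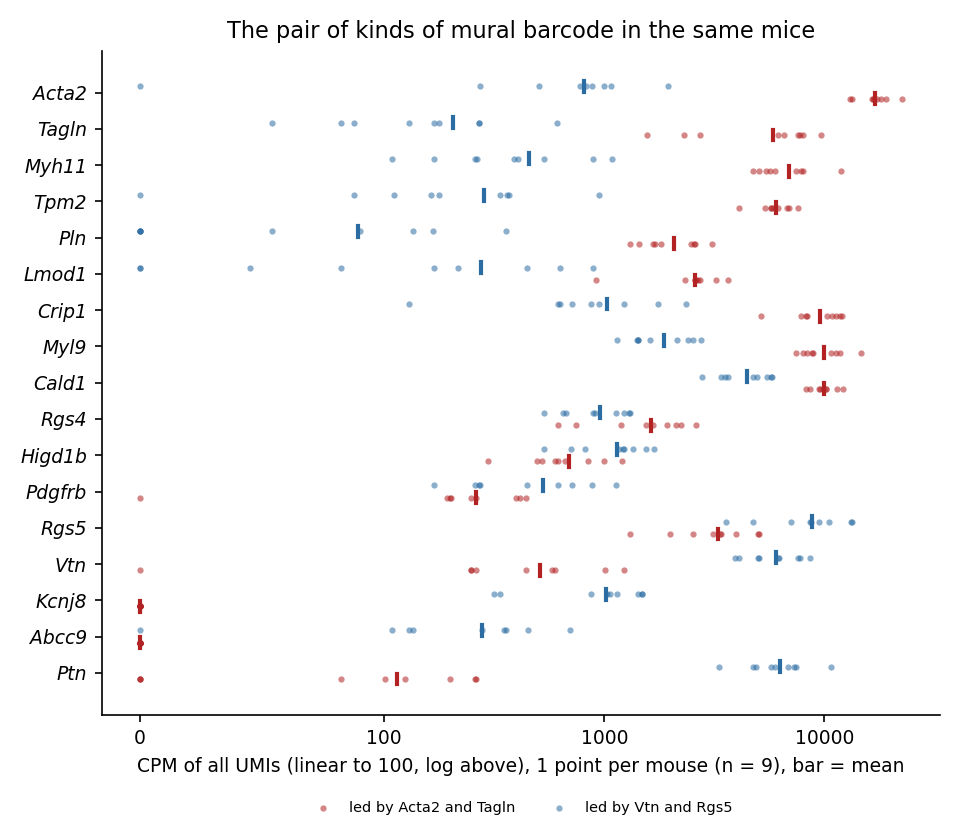
CPM of all UMIs for 17 genes in Acta2/Tagln-led and Vtn/Rgs5-led barcodes of the 9 mice that had at least 5 of each (1 point per mouse, bar for the mean, axis linear to 100 and logarithmic above). Myh11, Tpm2 and Pln do not overlap between the kinds, and Kcnj8 and Abcc9 lie at 0 in all 9 mice for Acta2/Tagln-led barcodes.

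Some Vtn/Rgs5-led barcodes carried RNA of other cell types of the vessel wall and the meninges. Dcn, the fibroblast proteoglycan decorin, had 397 mural UMIs, of which 384 were in the 23 barcodes with fibroblast RNA. Apod, an apolipoprotein, had 1367 of its 1524 mural UMIs in these barcodes, and Ptgds, a prostaglandin synthase of the meninges, 753 of 1022. Neither gene is particular to them, since oligodendrocyte barcodes had means of 8115 CPM of Apod and 14869 CPM of Ptgds. Pooled over mice, Vtn had 7633 CPM in these 23 barcodes and 6759 in the 154 other Vtn/Rgs5-led ones. Rgs5 had 729 and 11762 CPM, pooled likewise. Kcnj8 had a UMI in 4 of the 23 (17.4%) and in 52.6% of the 154, and Myh11 in 0 and 19.5%. Of their marker UMIs, 178 were of Vtn, 17 of Rgs5 and 0 of Acta2 or Tagln.

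Endothelial RNA was more common. Of the 154 barcodes without fibroblast RNA, 82 (53.2%) had at least 1 UMI of the endothelial genes of the rule, as did 9 of the 97 Acta2/Tagln-led barcodes (9.28%). Kcnj8 had a UMI in 52.8% of the 72 barcodes without endothelial UMIs and in 52.4% of the 82 with them, whose median depths were 652.5 and 869.5 UMIs, and its level was 1770 and 972 CPM. Bsg, the surface protein basigin of brain endothelium, had 401 CPM in the 72 and 4895 in the 82, and Itm2a had 0 and 1437 CPM. Cxcl12, a chemokine, had 219 CPM in the 72 and 1182 in the 82. Its mean over 9 mice in all Vtn/Rgs5-led barcodes was 771 CPM. Ptn, the growth factor pleiotrophin, had 7554 CPM in the 72, 4321 in the 82, 7976 in the barcodes with fibroblast RNA and 145 in Acta2/Tagln-led barcodes. Values for the 72, the 82, the 23 and the 154 barcodes, and that of Ptn in Acta2/Tagln-led barcodes, are pooled over mice.

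Blood RNA touched very few barcodes. Hbb-bs, a beta globin, had 249 mural UMIs in 4 barcodes, and 243 of them were in 1 barcode. Oligodendrocyte RNA was spread more widely, since 151 members had at least 1 UMI of the 8 oligodendrocyte markers and 14 had at least 10.

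Ratios of mural to other barcodes were ranked among genes outside the rule with at least 50 mural UMIs, so scarcer genes with larger ratios are not listed. Compared with all other kept barcodes, the largest ratios were those of Pln, Lmod1, Myh11, Aspn, Myl9, Olfr558, Kcnj8, Map3k7cl, Abcc9, Tpm2, Mustn1, Enpep, Kcne4, Higd1b, P2ry14, Mrvi1, Bgn, Slc38a11, Casq2 and Crip1. Aspn, the matrix proteoglycan asporin, had 879 CPM in mural and 1.13 in other barcodes. Enpep, the aminopeptidase that cleaves angiotensin II, had 223 and 0.510 CPM, and P2ry14, a receptor for UDP-sugars, 628 and 1.72 CPM. Olfr558, an odorant receptor gene, had 399 and 0.721 CPM, with 73 UMIs in Acta2/Tagln-led and 40 in Vtn/Rgs5-led barcodes. Of the 20 genes, 18 were higher in mural barcodes in all 11 mice and Abcc9 and Casq2 in 10. With the same minimum of 50 mural UMIs, the ratio to endothelial barcodes was largest for Dcn, Spp1, Pln, Lmod1, Serping1, Cebpb, Myh11, Nupr1, Bgn and Errfi1. Of these, Dcn, Spp1 and Nupr1 had most of their UMIs in the barcodes with fibroblast RNA.

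**Figure D3:**
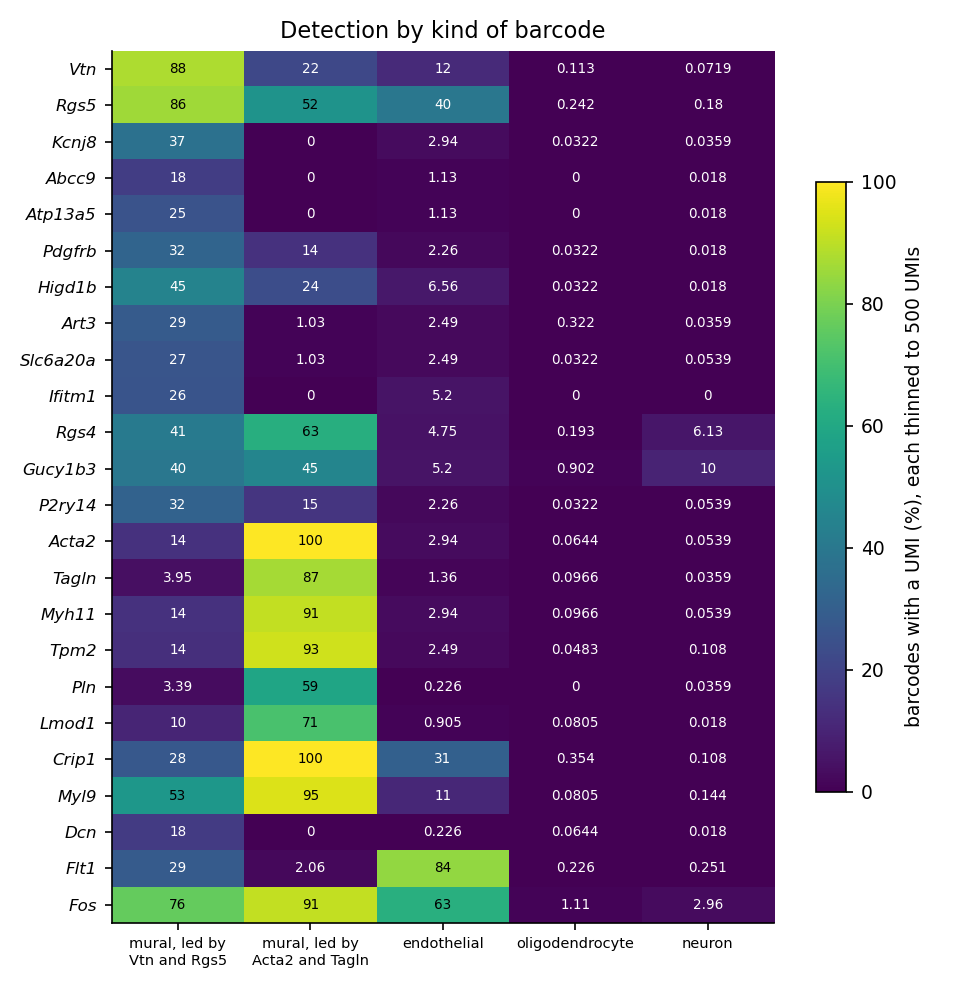
Percent of barcodes with at least 1 UMI of a gene, after each barcode was thinned to 500 UMIs, in the kinds of mural barcode, endothelial barcodes and barcodes rich in oligodendrocyte or neuronal RNA. Kcnj8, Abcc9, Atp13a5 and Ifitm1 are at 0 in Acta2/Tagln-led barcodes, while Fos is seen in 90.7% of them.

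Depth differed between kinds, so shares were also taken after thinning each barcode to 500 UMIs, which left out no kept barcode. Myh11 was then found in 90.7% of Acta2/Tagln-led and 14.1% of Vtn/Rgs5-led barcodes (96.9% and 16.9% unthinned). Kcnj8 was found in 0% and 37.3% (0% and 48.0% unthinned), and in 2.94% of endothelial barcodes. Rgs5, a marker of the rule, was found in 39.8% of endothelial barcodes (48.0% unthinned), against 0.242% of oligodendrocyte barcodes. The median number of genes at 500 UMIs was 376 in Acta2/Tagln-led, 394 in Vtn/Rgs5-led and 400.5 in endothelial barcodes.

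Signalling genes with a role in vessel tone were found in both kinds. Gucy1b3 and Gucy1a3, the subunits of the nitric oxide receptor guanylate cyclase, had 1110 ± 256 and 560 ± 219 CPM in mural barcodes, against 162 ± 125 and 89.0 ± 44.3 in endothelial barcodes (SD, n = 11 mice). Neuronal barcodes also carried Gucy1b3 in 53.6% of cases, which drops to 10.1% after thinning, against 41.6% of thinned mural barcodes. Pde5a, the phosphodiesterase that ends the cyclic GMP signal, had 362 CPM in Acta2/Tagln-led and 115 in Vtn/Rgs5-led barcodes. Ednra, the endothelin receptor of contractile cells, had 33 mural UMIs and 126 ± 80.1 CPM (SD, n = 11 mice). Of 27 such genes in the tables, Agtr1a, Adra1a, Adra1b, Adra1d, Avpr1a and Ptgir had 0 mural UMIs, which at this depth does not show that they are absent.

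Kcnmb1, the beta subunit of the large-conductance potassium channel, had 21 UMIs in Acta2/Tagln-led and 5 in Vtn/Rgs5-led barcodes. Kcne4, a potassium channel subunit, had a mean of 263 CPM in the former and 274 CPM in the latter over 9 mice. Of 13 channel, pump and gap junction genes with at least 20 UMIs, all 13 were higher than in other kept barcodes, 11 at least 3-fold, beside 63.8% and 24.9% of all genes. Of 17 matrix genes with that many UMIs, 17 were higher than in other barcodes and 14 than in endothelial barcodes, beside 59.4% of all genes for the latter. Both counts are on the contrast that the rule used. Notch3 and Heyl, a receptor and a target of Notch, had 150 and 176 CPM in mural against 26.8 and 22.9 in endothelial barcodes, while Pdgfb, the ligand of PDGFRB, had 7 mural and 77 endothelial UMIs.

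Of 25 genes for insulin action, growth factors and lipid handling, 9 had at least 20 mural UMIs. Insr, the insulin receptor, had 10 UMIs in all mural barcodes, 1 of them in an Acta2/Tagln-led barcode, and Irs2, its adaptor, had 17. Lpl, the lipoprotein lipase, had 19 mural UMIs and 2 endothelial ones. Cd36, Fabp4 and Pdk4 had 0. Igfbp7, a secreted binding protein of vessels, was plentiful in both kinds, with 4815 ± 2436 and 3456 ± 1225 CPM (SD, n = 9 mice). Pltp, a phospholipid transfer protein, had 3339 CPM in endothelial and 764 in mural barcodes, and within the latter 12 of 217 UMIs were in Acta2/Tagln-led ones.

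Immediate early genes, which turn on within minutes of a stimulus and also during tissue dissociation, were listed together with stress genes. Summed over the 23 genes of this list and pooled over all mice, the level was 32835 CPM in mural and 25072 in endothelial barcodes. It was 10644 in oligodendrocyte and 1781 in neuronal barcodes. Fos had 8641 ± 3682 CPM in Acta2/Tagln-led and 5464 ± 1893 in Vtn/Rgs5-led barcodes, higher in the former in 8 of 9 mice (SD, n = 9 mice). Btg2, an antiproliferative early gene, had 3754 ± 1416 and 798 ± 392 CPM. Fosb and the heat shock gene Hspa1a were higher in Vtn/Rgs5-led barcodes in 9 of 9 mice, with 634 and 1828 CPM for Fosb and 164 and 1518 for Hspa1a.

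Between the diets, mural barcodes made up 2.66 ± 0.948% of kept barcodes under control chow and 1.77 ± 1.18% under the high fat diet (SD, 7 mice each). In control replicates 1 to 7 the share was 2.81, 2.4, 1.20, 2.70, 1.98, 3.36 and 4.15%, and in high fat diet replicates 1 to 7 it was 0.756, 0.909, 0.745, 1.73, 1.95, 2.22 and 4.08%. The values overlap, and the highest of the high fat diet group rests on 2 mural barcodes of 49. The difference of -0.886 percentage points did not pass a two-sided exact permutation test over the 3432 ways to divide the mice (p = 0.148, adjusted p = 0.444 over 3 such tests). It was -0.813 points in pool 1 (exact permutation p = 0.429) and -0.983 in pool 2 (exact permutation p = 0.2, where the smallest possible is 0.1).

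A couple of settings brought the share past 0.05. Without high fat diet replicate 7 the difference was -1.27 points (exact permutation p = 0.0204). Without the barcodes with fibroblast RNA, a choice made after the values were seen, the means were 2.48 and 1.38% and the difference was -1.10 points (exact permutation p = 0.0239). That difference was -0.791 (exact permutation p = 0.0844) when the 3 mice with fewer than 300 kept barcodes were also left out and -0.982 (exact permutation p = 0.0952) without the 3 mice that stood apart. Neither p is adjusted for the number of settings, and the share did not pass in the other 23. A lower share can mean fewer mural cells, fewer recovered from the tissue or more barcodes of other types, which these counts cannot tell apart. The endothelial share was 3.80 ± 2.69% and 3.44 ± 3.07% in the same order (SD, 7 mice each, exact permutation p = 0.758). Without the mice under 300 kept barcodes it was 3.34 and 2.32%, a difference of -1.02 points (exact permutation p = 0.0758), beside -0.833 for the mural share (exact permutation p = 0.0693). Over 6 mice per diet, 68.7 ± 37.1 and 59.98 ± 22.0 mural barcodes were found per 100 endothelial ones (SD, n = 6 each; exact permutation p = 0.665).

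**Figure D4:**
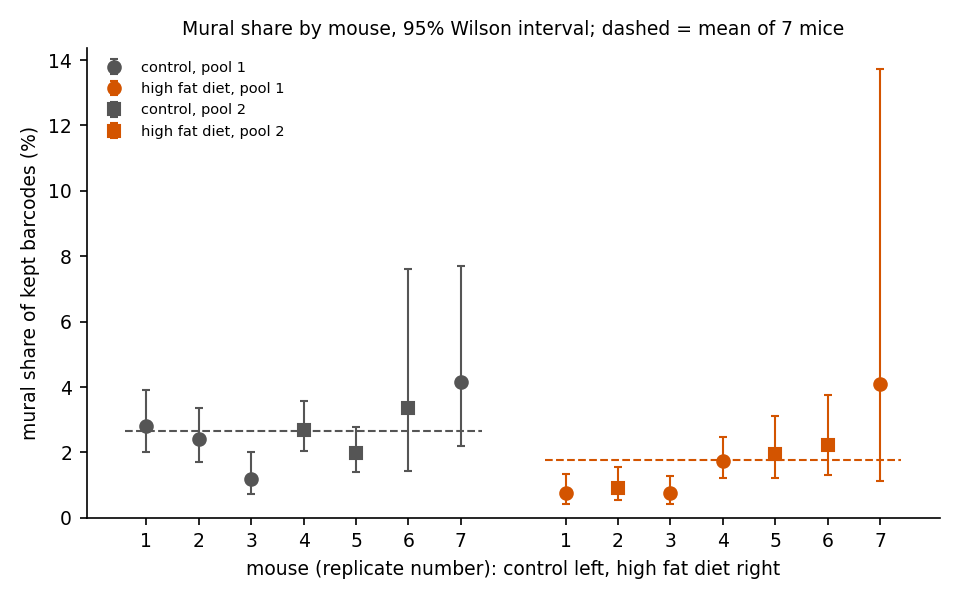
Mural share of kept barcodes (%) in each of the 14 mice, with its 95% Wilson interval (counting error only), circles for pool 1 and squares for pool 2, and a dashed line at each diet's mean. Control mice run from 1.20 to 4.15% and high fat diet mice from 0.745 to 4.08%, and the intervals of the smallest libraries are the widest.

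The makeup of the mural barcodes passed no test between diets. Acta2/Tagln-led barcodes were 38.9 ± 5.81% of them in 5 mice on control chow and 32.6 ± 11.2% in 6 on the high fat diet (SD, exact permutation p = 0.327, adjusted p = 0.490). The difference was +3.48 points in pool 1 and -16.9 in pool 2, opposite in sign. Median UMIs per mural barcode were 804 and 790 as geometric means over mice (exact permutation p = 0.825 on log10 values).

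No gene passed the test of a diet difference within mural barcodes. UMIs were summed per mouse and tested over 361 genes in 5 control and 6 high fat diet mice with edgeR's quasi-likelihood test, and 0 genes had a Benjamini-Hochberg adjusted p under 0.05 (0%; smallest 0.983). An unadjusted p under 0.05 was found for 11 genes (3.05%), 7 higher and 4 lower on the high fat diet, and DESeq2 also called 0. The median log2 fold change was -0.02. In endothelial sums 0 of 1065 genes passed (0%), with 28 under 0.05 unadjusted (2.63%), and the diet effects of mural and endothelial sums differed for 0 of 954 genes (0%), with 23 under 0.05 unadjusted (2.41%).

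The lowest p values were those of a pair of early genes. Fosb had 1400, 2013, 1172, 2999 and 956 CPM in control replicates 1 to 5 and 847, 937, 652, 1384, 668 and 428 in high fat diet replicates 1 to 6. All 6 high fat diet mice lay under the control mean, but the groups overlap. The log2 fold change was -1.0 (SE 0.33, edgeR unadjusted p = 0.00470, adjusted p = 0.983), and without control replicate 4 it was -0.53. Fos had 9045, 7936, 6717, 9468 and 4902 CPM under control chow and 4129, 2640, 7276, 5500, 4266 and 3706 under the high fat diet. Again all 6 lay under the control mean of 7613, with overlap, at a log2 fold change of -0.70 (SE 0.24, edgeR unadjusted p = 0.00700, adjusted p = 0.983), or -0.44 without control replicate 4.

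Of 17 early and stress genes tested, 8 had a positive and 9 a negative log2 fold change, with a median of -0.07 beside -0.02 over all 361 genes. Egr1 had -0.25 (SE 0.30), Jun -0.31 (SE 0.26) and Junb 0.36 (SE 0.32), and none passed by edgeR (adjusted p = 0.983 each). In endothelial sums Fos had -0.21 (SE 0.31) and Fosb -0.61 (SE 0.46). The difference between the classes was -0.51 for Fos (SE 0.33, adjusted p = 0.994 by edgeR) and -0.42 for Fosb (SE 0.41, adjusted p = 0.994 by edgeR).

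Higher on the high fat diet, with the smallest p values, were Lamp1, Phlda1, Luc7l3, Rrbp1 and Rab14. Luc7l3, a splicing factor, had 438, 379, 391, 449 and 149 CPM in control replicates 1 to 5 and 529, 596, 1086, 583, 565 and 570 in high fat diet replicates 1 to 6. It was 1 of 2 genes among the 361 whose groups do not overlap (0.554%). The other was Ccnd2, a cyclin of the G1 phase named after its values were seen, with a log2 fold change of 0.90 (SE 0.39, adjusted p = 0.983 by edgeR). The log2 fold change of Luc7l3 was 0.87 (SE 0.35, adjusted p = 0.983 by edgeR) in mural and -0.24 (SE 0.25) in endothelial sums. Lamp1, a lysosomal membrane protein, had 321, 146, 547, 614 and 628 CPM under control chow and 529, 937, 977, 1166, 565 and 855 in high fat diet mice, a log2 fold change of 0.97 (SE 0.36, adjusted p = 0.983 by edgeR). Without the 3 mice that stood apart it was 0.53. Phlda1, Rrbp1 and Rab14 had log2 fold changes of 1.36, 1.00 and 0.99, and that of Phlda1 was 0.83 without those mice.

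Besides Fosb and Fos, the lower genes with the smallest p values were Dmd, Akr1a1 and Rps21. Dmd, the dystrophin gene, had 642, 613, 781, 567 and 508 CPM under control chow and 635, 426, 434, 146, 154 and 428 in high fat diet mice, a log2 fold change of -0.82 (SE 0.39, adjusted p = 0.983 by edgeR), or -0.53 without high fat diet replicate 4. Akr1a1, an aldehyde reductase, had a log2 fold change of -0.86 and Rps21, a ribosomal protein, of -0.71, which was -0.47 without high fat diet replicate 3. For the difference from the endothelial effect the smallest p values were those of Syf2, Hsp90aa1, Clu, Rab2a and Atp6v1d on the higher side and Rarres2, Pja2, Akr1a1, Palld and Cryab on the lower side, with an adjusted p of 0.994 for each by edgeR.

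The genes that define mural cells passed no test between diets. Acta2 had 6995 ± 1218 CPM in 5 control mice and 6777 ± 2160 in 6 mice of the high fat diet (SD), a log2 fold change of -0.03 (SE 0.24). Vtn had 0.07 (SE 0.27), Rgs5 -0.34 (SE 0.29), Kcnj8 0.24 (SE 0.38) and Tagln -0.01 (SE 0.33). Of 13 contractile genes tested, 11 had a negative and 2 a positive log2 fold change, between -0.36 and 0.42 with a median of -0.13, beside 188 negative of 361 genes, and 0 passed by edgeR. The 8 pericyte markers tested had 4 positive and 4 negative values, with a median of 0.01. The channel and pump genes had 4 positive and 1 negative value.

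**Figure D5:**
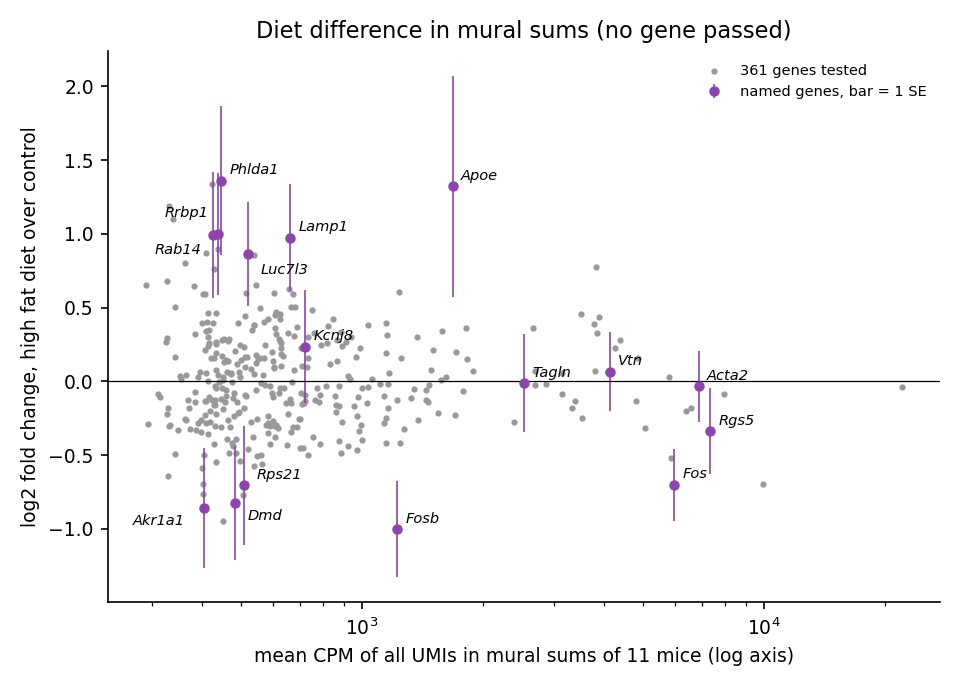
Log2 fold change between diets against the mean CPM of all UMIs (log axis) for the 361 genes tested in mural sums of 11 mice, with named genes in colour and bars of 1 SE. Fosb at -1.0 and Fos at -0.70 lie lowest among the plentiful genes, and Acta2, Tagln and Vtn lie near 0.

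Values of a few genes went with pool or with single mice. Tagln had 1138 and 729 CPM in control mice 1 and 2 and 741 in mouse 1 of the high fat diet group, and 2185 to 4061 in the other 8 mice. Acta2 did not show this, with 7061, 5427 and 5929 CPM in the same 3 mice and 3706 to 9818 in the others. Apoe, the lipid carrier, had 2859, 596, 3149, 6920, 565 and 499 CPM in high fat diet replicates 1 to 6 and 321 to 1106 in control mice. The 3 high values are the pool 1 mice. In pool 1 alone Apoe passed with a log2 fold change of 2.95 (SE 0.53, adjusted p = 0.00474 by edgeR), while in pool 2 it was -0.79 (SE 0.46), over both pools 1.32 (SE 0.75, adjusted p = 0.983 by edgeR) and without the 3 mice that stood apart 0.27 (SE 0.69). Of the 427 mural Apoe UMIs, 197 were in the 23 barcodes with fibroblast RNA and 87 in 1 barcode. Without the fibroblast RNA barcodes the log2 fold change over both pools was 1.43 (SE 0.62, adjusted p = 0.916 by edgeR). Summed markers of astrocytes, which also make Apoe, ranged from 78.1 to 583 CPM in control and from 0 to 2622 in high fat diet sums, and their part in the result was not tested.

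Markers of other cell types were present in the mural sums of both diets. The 8 oligodendrocyte markers summed to 312 to 14258 CPM in control and 855 to 22128 in high fat diet mice, and the 13 endothelial markers outside the rule to 2054 to 6973 and 1588 to 6413 CPM. The 9 fibroblast markers ranged from 2334 to 5077 and from 570 to 6010 CPM. Of the perivascular macrophage markers, Cd163, Lyve1 and F13a1 were at 0, and all 4 ependymal and tanycyte markers were at 0. Erythrocyte markers were at 0 in every high fat diet sum and reached 11846 CPM in a control sum. Their part in the diet differences was not tested.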

How the data were processed

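The deposited values are raw UMI counts, 1 table of genes by barcodes per mouse, which the authors had not normalized. The build was mm10 (GRCm38), and the tools named are Picard 2.2.4, STAR 2.4.2a and bcl2fastq 2.18.0.12, per the submitters' processing notes. For the counting tool, the annotation and the choice of barcodes, no source used here gives an answer. Genes with near-identical copies or overlapping genes are less certain.

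The members, lists and tests were chosen with earlier results of these data known, and the lists are described by counts only. Genes were matched by the symbols in the tables. Scrublet (scanpy 1.11.5) ran at an expected rate of 5% on mice with at least 300 kept barcodes, and its calls were left in.

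For mice with at least 10 barcodes, UMIs were summed. The test was the quasi-likelihood F test of edgeR 4.0.16 under R 4.3.3, with TMM scaling, filterByExpr and the pool as covariate, and DESeq2 1.42.0 was the alternative. The interaction had the mouse as block. The tests were also run on simulated counts, but the outcome is not given here. What size of diet difference these sums could show is therefore not stated. Named genes were the rule's genes, list members with most UMIs, those with the largest ratios (up to 20 over other barcodes, 10 over endothelial ones and 10 within mural ones), and, per direction of a diet test, the 5 genes of smallest p. Ratios to other or endothelial barcodes were ranked among genes with at least 50 mural UMIs, and those within mural barcodes among genes with at least 30. Apoe in the diet comparison, the lead and rest values of Ptn, Bsg, Pltp and Rgs4, and the barcodes with fibroblast RNA or endothelial UMIs were picked after values were seen. SE is the log2 fold change divided by the root of F. Intervals and limits from a count of 0 cover counting error only. Each mouse is a separate animal.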

Additional observations from a re-analysis of the deposited data

Results flagged for a closer look

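Among 36 groups of per-mouse values that were looked at, 3 held a mouse far from the others of its diet, where chance gives about 1 in 20. Luc7l3 in mural sums was 149 CPM in control replicate 5, against 379 to 449 in the other 4 control mice. The same gene was 1086 CPM in high fat diet replicate 3, against 529 to 596 in the other 5 mice of that diet. Rab14 was 175 CPM in control replicate 2, against 292 to 312 in the other 4 control mice. A single UMI was worth 23.6 to 109 CPM in these sums.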

How the results depend on the processing

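The mural share kept its negative sign in all settings tried. It passed in 2 of them: without barcodes with fibroblast RNA (-1.10 points, chosen after seeing the data) and without high fat diet replicate 7. Leaving out each mouse in turn gave -1.27 to -0.637. The Acta2/Tagln-led share turned positive in pool 1 (3.48 points) and with mice of at least 5 mural barcodes (1.66), and stayed between -8.84 and -2.83 without each mouse in turn. The difference in log10 median UMIs changed sign without called doublets (0.000396), in pool 2 (0.0222) and among the sets without 1 mouse (-0.0401 to 0.0167). Counts of genes passing by edgeR became 1 in pool 1 for mural sums (Apoe), 1 with no filter for endothelial sums (Atf3, log2 fold change -1.50, adjusted p = 0.0457) and 1 without the 3 mice that stood apart (Slc16a1, 1.47, adjusted p = 0.0494), and were 0 in the others, with RLE scaling and DESeq2 among them. Rps21 changed sign without barcodes with an endothelial UMI (0.15). The cause was not tested. No paired analysis was possible because each mouse had 1 diet and its replicate number only follows the listing order. With 9208 to 42354 UMIs per mural sum, 361 genes passed the filter of the reported test, 2148 a minimum count of 3 and 12058 a minimum of 1 UMI, and 0 passed edgeR's test in each. With the last filter the log2 fold changes of Lamp1, Phlda1, Luc7l3, Rrbp1 and Rab14 were 0.61, 0.90, 0.47, 0.61 and 0.60 and that of Fos -1.10. In pools 1 and 2 Fosb was -0.54 and -1.55, and Lamp1 1.69 and 0.32.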
